A study of Mus musculus with 13 samples.

Results

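Expression of 10 genes of interleukin 6 (IL6) family signaling was examined in 13 Panc02 tumors. The genes were the ligands Il6, Lif and Osm, the receptors Il6ra, Il6st, Lifr and Osmr, the kinase Jak1, the transcription factor Stat3 and its feedback inhibitor Socs3. They were chosen by name from the family and its signaling chain, and all 10 were found among 22180 genes measured. Where a gene had several probe sets, which was the case for Socs3 only, the one with the highest mean over the 13 arrays was used. Panc02 is a mouse pancreatic ductal adenocarcinoma (PDAC) cell line, and all tumors grew from it under the skin of the flank of male C57BL/6 mice obtained as young adults. Mice ate a control diet or a high-fat diet that causes diet-induced obesity (DIO), and some mice on each diet also ate HMB (β-hydroxy-β-methylbutyrate), formed when leucine is broken down, as its calcium salt from shortly before the cells were injected. This gave 3 control tumors, 3 control + HMB tumors, 3 DIO tumors and 4 DIO + HMB tumors, with 1 tumor of 1 mouse on each array. Mice of the study received the chemotherapy gemcitabine or its vehicle, and the labels do not say which applied to these mice.

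Cytokines of the IL6 family share the receptor subunit gp130, which Il6st encodes. Each cytokine adds a subunit of its own: the IL6 receptor chain (Il6ra) for IL6, the LIF receptor (Lifr) for leukemia inhibitory factor and the oncostatin M receptor (Osmr) for oncostatin M. The bound receptors activate Janus kinases such as JAK1, which phosphorylate STAT3, and phosphorylated STAT3 enters the nucleus and induces genes that include Socs3, whose protein binds gp130 and blocks further signaling. In PDAC the pathway is known for fibroblasts and macrophages that secrete IL6 and LIF and for tumor cells that respond through STAT3. Arrays measure mRNA, and phosphorylation of STAT3 was not measured here.

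The stretches of DNA just before 4 of the genes are shown because 3 of them, Stat3, Il6ra and Il6st, had the lowest p-values for HMB, and because Il6 is the ligand that names the family. For Socs3, the target that closes the loop, only the matching site is shown. The sequences are from RefSeq (GRCm38.p6), 5′ to 3′ on the strand of the gene. RefSeq held promoters of 9 of the 10 genes, and for Osm none was read. Capitals mark matches, on either strand, to the STAT element TTCNNNGAA, the NF-κB element (GGGA, any base, then TTTCC) or the AP-1 element TGANTCA, and none of these matches overlapped another. The Stat3 stretch lies at chr11:100939595-100939790 on the minus strand, the Il6ra stretch at chr3:89913197-89913446 on the minus strand, the Il6st stretch at chr13:112463820-112464069 on the plus strand, the Il6 stretch at chr5:30012864-30013113 on the plus strand and the Socs3 site at chr11:117969502-117969530 on the minus strand.
Stat3: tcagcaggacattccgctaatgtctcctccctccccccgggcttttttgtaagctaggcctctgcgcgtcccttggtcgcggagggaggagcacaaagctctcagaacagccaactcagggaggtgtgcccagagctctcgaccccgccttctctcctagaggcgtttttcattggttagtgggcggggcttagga
Il6ra: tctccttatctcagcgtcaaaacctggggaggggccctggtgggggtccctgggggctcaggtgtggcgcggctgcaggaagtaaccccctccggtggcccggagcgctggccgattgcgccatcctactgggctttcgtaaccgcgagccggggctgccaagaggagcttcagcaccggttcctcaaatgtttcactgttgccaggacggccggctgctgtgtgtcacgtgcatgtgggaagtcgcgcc
Il6st: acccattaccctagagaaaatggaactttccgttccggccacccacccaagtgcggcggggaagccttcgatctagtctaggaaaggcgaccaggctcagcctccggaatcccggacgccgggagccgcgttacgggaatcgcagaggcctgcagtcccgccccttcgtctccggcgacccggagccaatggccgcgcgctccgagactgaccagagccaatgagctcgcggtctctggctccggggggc
Il6: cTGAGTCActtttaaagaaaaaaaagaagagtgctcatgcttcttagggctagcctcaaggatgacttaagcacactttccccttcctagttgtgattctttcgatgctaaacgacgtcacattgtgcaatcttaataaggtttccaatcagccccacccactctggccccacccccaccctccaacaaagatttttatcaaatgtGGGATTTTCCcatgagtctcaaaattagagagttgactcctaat
Socs3: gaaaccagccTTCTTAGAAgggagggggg

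Distances are counted from the start that each promoter sequence was set to, which is not always the outer end of the gene. Within the 250 bases before that start, the STAT letters were found in Socs3, beginning 154 bases before it, and in no other of the 9 genes. The Socs3 site lies inside the annotated gene (chr11:117966079-117970336), and the stretches searched for Lifr and Osmr also lie inside their genes. The same letters were present in 7.02% of 32851 mouse promoters of that length. Il6 held 1 NF-κB match beginning 44 bases before its start, a combination of letters that 0.356% of promoters hold, and 1 AP-1 match at 249 bases. Lif held an AP-1 match at 228 bases, against 6.75% of all promoters. Promoters of Il6ra, Il6st, Lifr, Osmr, Jak1 and Stat3 held none of the 3 sets of letters. These matches describe the sequence and say nothing about binding.

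The arrays were checked before the genes were compared. Of the keratins made by epithelial cells, Krt8 was at 8.75 to 9.62 and Krt18 at 8.99 to 9.97 on the log2 scale of the deposited values. Krt19 (3.28 to 6.56) and Krt7 (2.70 to 7.15) were lower, as was Epcam, an epithelial adhesion molecule (3.84 to 6.47). Cdh1 was at 7.04 to 8.25 and Vim at 12.06 to 12.48. The spread of gene values within each array, given as their SD and called its width here, was 2.51 to 2.54 in control, 2.57 to 2.62 in control + HMB, 2.51 to 2.60 in DIO and 2.58 to 2.62 in DIO + HMB, so that the widths of control arrays all lay below those of both HMB groups. DIO replicate 3 stood apart with a fibroblast marker score of -1.11, and DIO + HMB replicate 1 with a B cell marker score of 3.74 and DIO + HMB replicate 3 with a skeletal muscle marker score of 3.95, on a scale centered at 0 over the 13 arrays. Of the 13 arrays, DIO replicate 3 also had the lowest neutrophil, endothelial, T cell, B cell and skeletal muscle scores. DIO + HMB replicate 1 also had the highest neutrophil, T cell and epithelial scores. Where leaving out 1 tumor changed a value by over 1.5 times or its side of an unadjusted p of 0.05, the value without it or the number of such fits is given for the main values below. In bulk tumors, fewer cells of a type and less RNA per cell cannot be told apart.

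To determine whether diet or HMB altered these genes, 8 comparisons were made in 1 limma model, with p-values adjusted over all 22180 genes. None of the 10 genes passed the adjusted threshold of 0.05 in any comparison, and 0 genes of the whole array (0%) passed in any of the 8 comparisons or in the test for any difference among the 4 groups. The differences below are therefore given as measured values with unadjusted p-values, beside the share of all genes that reached the same unadjusted p. In limma's F test across the 4 groups, Stat3 had an unadjusted p of 0.0107, Il6ra of 0.0186, Il6st of 0.0389 and Lifr of 0.0398, and 9.4% of all genes were under 0.05. The adjusted p-values of these 4 genes were 0.488 to 0.524.

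**Figure D1:**
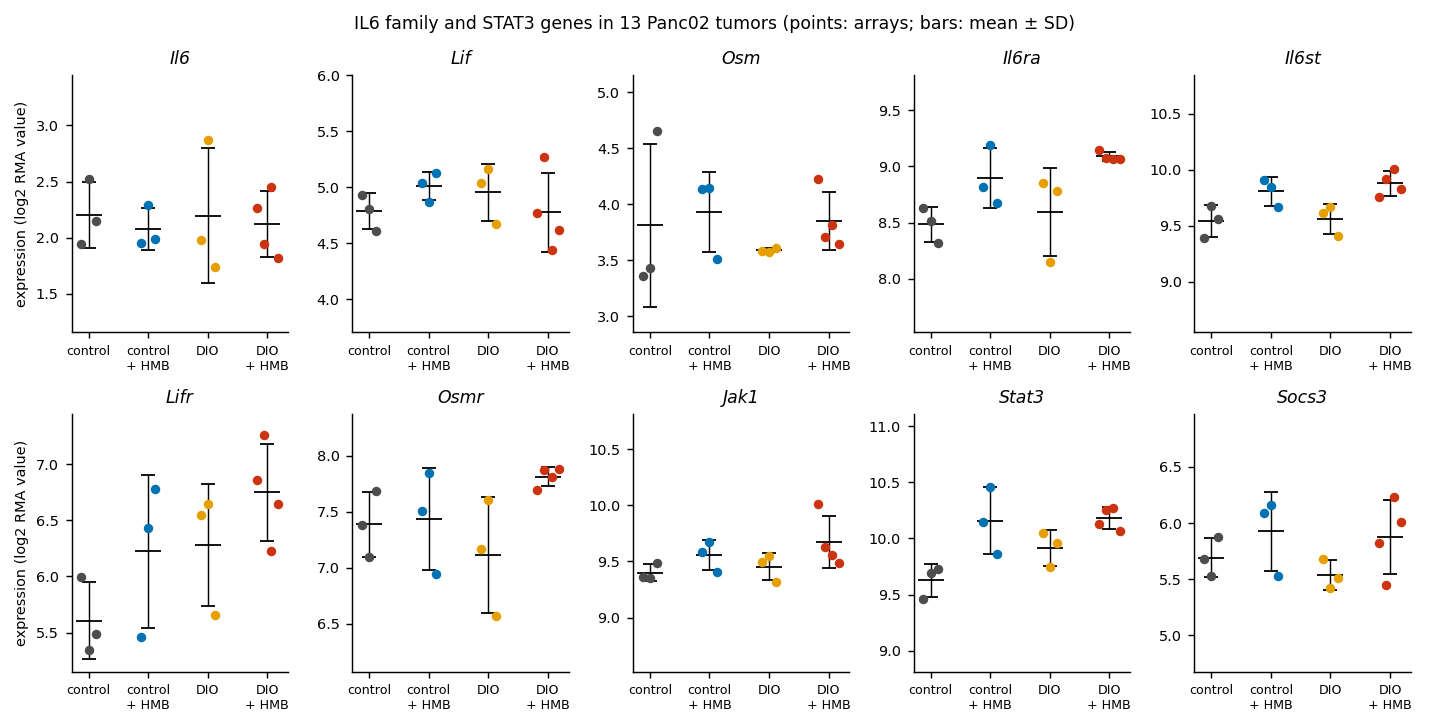
Expression of the 10 genes in each tumor. Each panel plots the log2 value (vertical axis, all panels spanning the same range) of each array (points) by group with the mean ± SD (bars). The 4 DIO + HMB tumors lie close together for Il6ra (9.06 to 9.15) and above all DIO tumors for Il6ra, Il6st, Osmr, Stat3 and Osm.

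None of the 3 ligands was under an unadjusted p of 0.05 in any comparison of all 13 tumors. Il6, the founding cytokine of the family, measured 1.94, 2.52 and 2.15 in control, 1.95, 2.29 and 1.99 in control + HMB, 1.98, 2.87 and 1.74 in DIO, and 2.27, 1.94, 2.45 and 1.81 in DIO + HMB tumors. All 4 groups overlapped, and the highest and the lowest tumor of the 13 both belonged to DIO. The HMB difference averaged over the 2 diets, log2, was -0.10 ± 0.19 (SE; 95% interval -0.51 to 0.30), so that a change of either sign up to the size of that interval could not be told from no change. The median of the mean levels of all genes was 4.45, and of the 10 genes only Il6 and Osm were below it.

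Lif, which maintains stem cells in culture and is secreted by stromal cells of PDAC, measured 4.93, 4.81 and 4.61 in control, 5.03, 4.87 and 5.12 in control + HMB, 5.04, 5.16 and 4.67 in DIO, and 4.77, 5.27, 4.44 and 4.62 in DIO + HMB tumors. Both the highest and the lowest value belonged to DIO + HMB. The HMB difference was 0.22 ± 0.20 on the control diet and -0.18 ± 0.19 in DIO, and the interaction, the difference between these effects, was -0.40 ± 0.28 (unadjusted p = 0.168, adjusted p = 0.933). These values depended on single tumors: without DIO + HMB replicate 2 the difference in DIO was -0.34 (unadjusted p = 0.0534) and the interaction -0.57 (unadjusted p = 0.0279), and without DIO + HMB replicate 3 the former was -0.07.

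Osm, made mainly by myeloid and T cells, was 3.36, 3.43 and 4.65 in control and 4.13, 4.15 and 3.51 in control + HMB tumors. DIO tumors lay within a narrow range (3.59, 3.58 and 3.61), and the 4 DIO + HMB tumors (4.22, 3.71, 3.82 and 3.65) all exceeded them. The difference was 0.26 ± 0.28 (unadjusted p = 0.377), and 0.13 without DIO + HMB replicate 1. Control replicate 3 was the highest of all 13 tumors and decided the comparisons with control. On the control diet the HMB difference was 0.12 ± 0.30 with this tumor and 0.54 without it (unadjusted p = 0.0282), and the averaged HMB difference was 0.19 ± 0.21 with it and 0.40 without it (unadjusted p = 0.0152). Among the 3 control tumors, this one also had the highest T cell (0.45), macrophage (0.17), neutrophil, epithelial and skeletal muscle (2.16) marker scores. The score of immediate early genes, which rise during tissue handling, was also highest in this tumor among the 3 (0.09). Its fibroblast, endothelial, B cell and adipocyte scores were not the highest. The part of these cells or of tissue handling in the Osm value was not tested.

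Of the 4 genes under an unadjusted p of 0.05 for averaged HMB, 3 were receptors. Il6ra, the binding chain for IL6, measured 8.63, 8.51 and 8.32 in control and 8.82, 9.20 and 8.67 in control + HMB tumors. It measured 8.86, 8.15 and 8.78 in DIO, and 9.15, 9.08, 9.06 and 9.07 in DIO + HMB tumors. Each HMB group lay entirely above its own diet group without HMB. The HMB difference averaged over diets was 0.45 ± 0.13 (1.37-fold, 95% interval 1.13 to 1.66; unadjusted p = 0.00427, adjusted p = 0.241). Within DIO it was 0.50 ± 0.18 (unadjusted p = 0.0157, adjusted p = 0.705), and without DIO replicate 2, the tumor with the lowest Il6ra, it was 0.27 (unadjusted p = 0.104). On the control diet it was 0.41 ± 0.19 (unadjusted p = 0.0511).

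Il6st, the shared gp130 subunit, showed a similar order at a smaller size. It measured 9.39, 9.68 and 9.56 in control, 9.91, 9.85 and 9.67 in control + HMB, 9.61, 9.67 and 9.41 in DIO, and 9.75, 9.92, 10.01 and 9.83 in DIO + HMB tumors. DIO + HMB lay above both groups without HMB, whereas control + HMB overlapped control by 1 tumor. The averaged HMB difference was 0.29 ± 0.089 (1.22-fold, 95% interval 1.07 to 1.40; unadjusted p = 0.00669, adjusted p = 0.243). Within DIO it was 0.31 ± 0.12 (unadjusted p = 0.0234), and without DIO replicate 3 it was 0.24 (unadjusted p = 0.107).

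Lifr spanned the widest range of the 10 genes among tumors. It measured 5.99, 5.34 and 5.49 in control, 5.46, 6.43 and 6.78 in control + HMB, 6.54, 6.65 and 5.65 in DIO, and 6.86, 7.26, 6.23 and 6.65 in DIO + HMB tumors. DIO + HMB lay above control without overlap, and the other 2 groups spread across both. The difference of DIO + HMB from control was 1.14 ± 0.34 (2.21-fold, 95% interval 1.32 to 3.69; unadjusted p = 0.00546, adjusted p = 0.202). The averaged effect of obesity was 0.60 ± 0.25 (unadjusted p = 0.0324, adjusted p = 0.927) and that of HMB 0.54 ± 0.25 (unadjusted p = 0.0495, adjusted p = 0.359). Both averages depended on single tumors: the HMB difference was 0.39 without DIO replicate 3 (unadjusted p = 0.136), and the obesity difference 0.41 without control + HMB replicate 1 (unadjusted p = 0.093). They also passed the unadjusted threshold in only 5 and 6 of the 13 fits that each left out 1 tumor.

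Osmr, which pairs with gp130 to bind oncostatin M, measured 7.38, 7.10 and 7.68 in control and 7.51, 7.85 and 6.94 in control + HMB tumors. It measured 7.17, 7.60 and 6.57 in DIO and 7.70, 7.87, 7.81 and 7.88 in DIO + HMB tumors. DIO + HMB exceeded DIO and control without overlap, whereas control and control + HMB covered the same range. Within DIO the HMB difference was 0.70 ± 0.25 (1.62-fold, 95% interval 1.12 to 2.36; unadjusted p = 0.0149, adjusted p = 0.705), and on the control diet it was 0.05 ± 0.27. The difference between the 2 effects was 0.65 ± 0.36 (unadjusted p = 0.0958, adjusted p = 0.933), and its size depended on single tumors. Without DIO replicate 3, which had the lowest Osmr and the lowest fibroblast score, the HMB difference within DIO was 0.43 (unadjusted p = 0.0987) and the difference between effects 0.38 (unadjusted p = 0.267). The latter was 0.90 without DIO replicate 2 (unadjusted p = 0.0232) and 0.86 without control + HMB replicate 2 (unadjusted p = 0.0361). The part of any of these cell types in this result was not tested.

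Downstream of the receptors, Jak1 values were close together. Jak1 was 9.36, 9.35 and 9.49 in control, 9.59, 9.68 and 9.41 in control + HMB, 9.50, 9.55 and 9.32 in DIO, and 10.02, 9.63, 9.55 and 9.49 in DIO + HMB tumors. The 4 DIO + HMB tumors lay above control, with replicate 1 the highest of all 13. The averaged HMB difference was 0.19 ± 0.10 (unadjusted p = 0.0879, adjusted p = 0.419).

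Stat3 was lowest in the 3 control tumors. It measured 9.46, 9.69 and 9.73 in control, 10.15, 10.46 and 9.87 in control + HMB, 10.05, 9.74 and 9.96 in DIO, and 10.13, 10.26, 10.27 and 10.06 in DIO + HMB tumors. Every tumor of the other 3 groups exceeded every control tumor, and DIO replicate 2 (9.74) lay just above the highest of them (9.73). The averaged HMB difference was 0.40 ± 0.11 (1.32-fold, 95% interval 1.12 to 1.55; unadjusted p = 0.00293, adjusted p = 0.241), which ranked 259 of 22180 genes by p. It was 0.53 ± 0.16 on the control diet (1.45-fold; unadjusted p = 0.00529, adjusted p = 0.303) and 0.26 ± 0.15 in DIO (unadjusted p = 0.0976). The interaction was -0.27 ± 0.22 (unadjusted p = 0.239). Obesity without HMB gave 0.29 ± 0.16 (unadjusted p = 0.0915, adjusted p = 0.685), and DIO + HMB against control 0.55 ± 0.15 (1.47-fold; unadjusted p = 0.00261, adjusted p = 0.188). The averaged HMB difference stayed between 0.32 and 0.47, with unadjusted p of at most 0.00925, whichever single tumor was left out, but was 0.12 (unadjusted p = 0.409) with array width as a covariate.

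Socs3, which is transcribed in response to STAT3, overlapped between all groups. It measured 5.68, 5.52 and 5.88 in control, 6.09, 6.16 and 5.52 in control + HMB, 5.68, 5.42 and 5.51 in DIO, and 5.82, 5.45, 6.23 and 6.01 in DIO + HMB tumors. The averaged HMB difference was 0.29 ± 0.15 (unadjusted p = 0.0708, adjusted p = 0.395), and that of obesity without HMB -0.16 ± 0.21. The HMB difference was 0.39 without control + HMB replicate 3 (unadjusted p = 0.0154) and 0.23 without DIO + HMB replicate 3 (the highest tumor), which also had the highest skeletal muscle and immediate early scores. A second probe set for Socs3 lay at 2.75 to 3.82, below the median gene level of 4.45. It gave 0.22 for HMB and 0.25 for obesity without HMB, the latter of opposite sign. Its HMB difference in DIO was 0.08, against 0.34 for the probe set used, and its interaction -0.28, against 0.11.

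**Figure D2:**
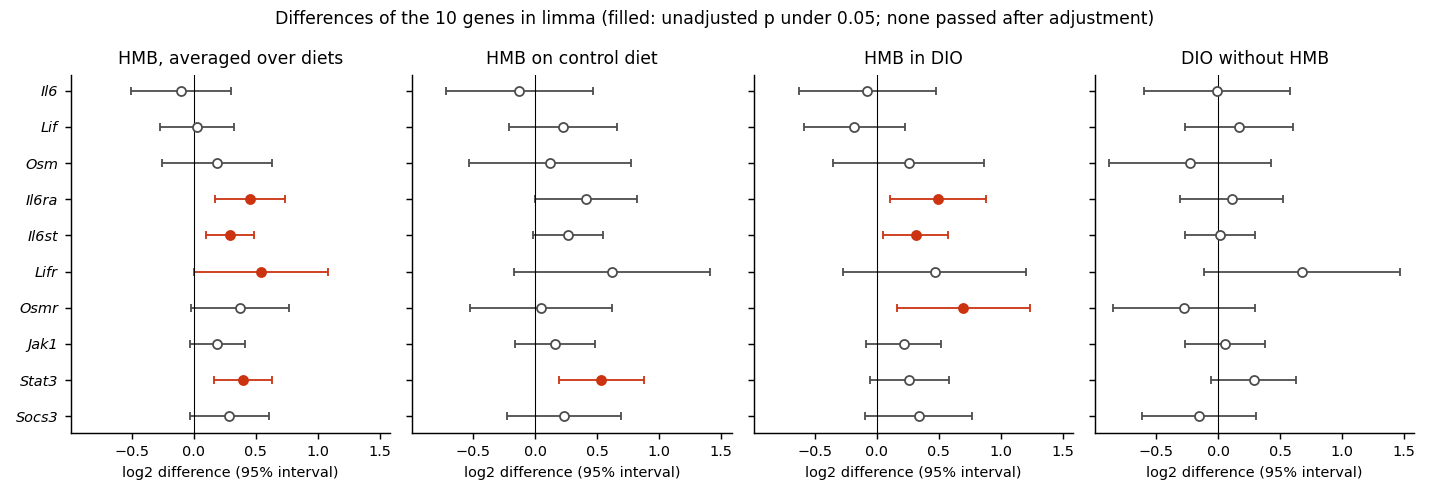
Log2 differences of the 10 genes (horizontal axis, points) with 95% intervals (bars) for HMB averaged over diets, HMB on the control diet, HMB in DIO, and DIO without HMB. Filled red points have an unadjusted p under 0.05: 4 genes for the average, 1 on the control diet, 3 in DIO and 0 for DIO without HMB.

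The counts for the 10 genes are set beside those of the whole array next. For HMB averaged over diets, 9 of the 10 were higher, their median difference was 0.29 against 0.01 for all genes, and 4 (Stat3, Il6ra, Il6st and Lifr, all higher) had an unadjusted p under 0.05, as did 13.9% of all genes in either direction and 8.1% in the higher direction. For DIO + HMB against control the same 4 genes were under it, against 14.8% of all genes and 8% in the higher direction. Il6ra, Il6st and Osmr were under it for DIO + HMB against DIO, against 7.08% and 3.34%, and Stat3 for control + HMB against control, against 11.4% and 7.22%. Comparisons that share a group share its tumors.

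For obesity, 0 of the 10 genes were under the unadjusted threshold in DIO against control, where 7.74% of all genes were, and 0 in DIO + HMB against control + HMB, where 2.85% were. Averaged over HMB, Lifr was the 1 gene under it, against 5.27% of all genes. For the interaction the count was 0 of 10, against 4.82%. Median differences of the 10 genes for these comparisons were 0.04, 0.06, 0.05 and 0.06, against 0.02, -0.02, 0.00 and -0.05 over all genes.

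Counts of genes whose groups did not overlap were also taken, in either direction for the array as a whole. DIO + HMB lay above DIO for 5 genes (Osm, Il6ra, Il6st, Osmr and Stat3), where 7.79% of all genes did not overlap in either direction, and above control for 6 (Il6ra, Il6st, Lifr, Osmr, Jak1 and Stat3), against 14.9%. Control + HMB lay above control for Il6ra and Stat3, against 17.4%, and DIO above control for Stat3, against 11%. Between DIO + HMB and control + HMB all 10 genes overlapped, and 4.34% of all genes did not.

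Array width moved with HMB, and most HMB differences were smaller in a model that held it. With width as a covariate in the model, the averaged HMB difference of Stat3 was 0.12 (unadjusted p = 0.409), that of Il6ra 0.14 (unadjusted p = 0.451), that of Il6st 0.23 (unadjusted p = 0.134) and that of Lifr 0.86 (unadjusted p = 0.0551). None of the 10 genes was then under an unadjusted p of 0.05 for averaged HMB, and the share of all genes was 3.93% in place of 13.9%. The level of a gene mattered too: among the 11090 genes whose mean was at or above the median, 19.5% were under that unadjusted p for averaged HMB. Their median difference was 0.08, and 3 of the 8 family genes among them were under the same unadjusted p. With arrays quantile normalized again, the differences were 0.35 for Stat3, 0.41 for Il6ra and 0.24 for Il6st, each with an unadjusted p of at most 0.0195, whereas Lifr was no longer under 0.05 (0.41, unadjusted p = 0.124) and Socs3 was at 0.15 (unadjusted p = 0.262). Width comes from the same values, and control widths did not overlap those of either HMB group, so this model cannot fully separate width from HMB. Whether width reflects the RNA, the hybridization or the tumors was not tested.

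**Figure D3:**
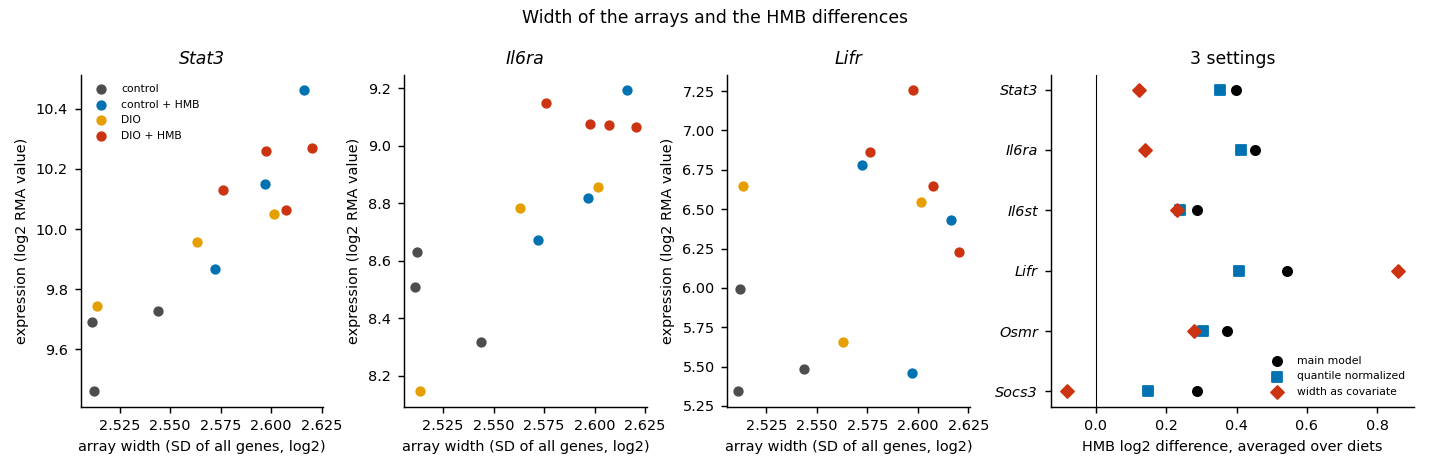
Log2 expression of Stat3, Il6ra and Lifr (vertical axes) against array width, the SD of all genes in an array (horizontal axes), with points colored by group, and the averaged HMB difference of 6 genes under 3 settings. Control arrays are the narrowest on average and hold low Stat3, and with width as a covariate the HMB difference is 0.12 for Stat3 and -0.08 for Socs3.

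Other members of the family were examined next: 10 further ligands and receptors were analysed. Of these 10, 0 passed after adjustment. For averaged HMB 8 were higher, with a median of 0.11, and 1 was under an unadjusted p of 0.05, a share close to the 13.9% of all genes. That gene was Il27ra, the IL27 receptor, which pairs with gp130. It measured 5.43, 5.46 and 5.69 in control, 6.31, 6.87 and 5.62 in control + HMB, 5.78, 5.15 and 5.42 in DIO, and 7.63, 5.88, 6.05 and 5.81 in DIO + HMB tumors. The difference was 0.81 ± 0.29 (unadjusted p = 0.0158, adjusted p = 0.274), or 0.60 without DIO + HMB replicate 1. The highest tumor was DIO + HMB replicate 1, which also had the highest B cell, T cell, neutrophil and epithelial scores. The part of any of these cell types in the Il27ra value was not tested.

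Ctf2, a cardiotrophin gene of the mouse, had the lowest unadjusted p of the family for the interaction. It measured 2.91, 2.81 and 2.75 in control, 2.33, 2.63 and 2.53 in control + HMB, 2.52, 2.52 and 2.14 in DIO, and 2.78, 2.83, 2.61 and 2.80 in DIO + HMB tumors. All of these values lay below 4.45, the median of the mean levels of all genes. Control and DIO + HMB overlapped, and control lay above the other 2 groups. The interaction was 0.68 ± 0.19 (unadjusted p = 0.00324, adjusted p = 0.933). Ebi3, the shared subunit of IL27 and IL35, ran the other way: it was 0.46 ± 0.17 higher with HMB on the control diet (unadjusted p = 0.0182) and 0.38 ± 0.17 higher with obesity alone (unadjusted p = 0.0454), with an interaction of -0.56 ± 0.23 (unadjusted p = 0.0336). Without control replicate 2 none of these 3 was under 0.05 (unadjusted p = 0.086, 0.185 and 0.0912), and with the mean of its probe sets they were 0.18, 0.03 and -0.15. Ctf1 had an interaction of -0.52 ± 0.23 (unadjusted p = 0.0428), which was -0.37 without control replicate 3 (unadjusted p = 0.118). Cntfr, the receptor for ciliary neurotrophic factor, was 0.73 ± 0.30 higher in DIO + HMB than in control (unadjusted p = 0.0289), and 0.48 higher without DIO + HMB replicate 1, its highest tumor (unadjusted p = 0.0838).

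Of 14 other kinases, STATs, phosphatases, inhibitors and sheddases analysed, 0 passed after adjustment. For averaged HMB 7 were higher and 7 lower, and 3, all higher, were under an unadjusted p of 0.05, beside 13.9% of all genes in either direction and 8.1% in the higher one. Ptpn6 encodes SHP-1, a phosphatase of blood cells that dampens cytokine signaling. It measured 9.19, 9.31 and 9.38 in control, 10.02, 10.001 and 9.42 in control + HMB, 9.66, 9.46 and 9.31 in DIO, and 10.09, 9.76, 9.93 and 9.65 in DIO + HMB tumors. Control was below both HMB groups, and the averaged difference was 0.45 ± 0.12 (unadjusted p = 0.0029, adjusted p = 0.241). Pias1, an inhibitor of STAT proteins, differed by 0.31 ± 0.10 (unadjusted p = 0.011), and Adam17, the protease that sheds IL6 receptor from cells, by 0.27 ± 0.11 (unadjusted p = 0.0316). Adam17 was under 0.05 in 7 of the 13 fits that each left out 1 tumor, and Ptpn6 and Pias1 in 13 each. With array width as a covariate the differences were 0.29 for Ptpn6, 0.03 for Pias1 and 0.03 for Adam17, with unadjusted p-values of 0.158, 0.801 and 0.858.

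All 29 listed genes that STAT3 can induce were measured. For averaged HMB 21 were higher and 8 lower, with a median of 0.16 against 0.01 over all genes, and 2 were under an unadjusted p of 0.05, a smaller share than the 13.9% of all genes. For DIO + HMB against control 24 were higher, with a median of 0.20, and 6 were under it, 5 of them higher, beside 14.8% of all genes in either direction and 8% in the higher one. Among these were the acute phase genes Serpina3n (1.67 ± 0.71, unadjusted p = 0.0369), Lcn2 (1.52 ± 0.60, unadjusted p = 0.0252) and Lrg1 (1.30 ± 0.56, unadjusted p = 0.0375), each with an adjusted p of 0.27 to 0.31. Lcn2, an iron-sequestering protein, was 3.11, 5.25 and 4.36 in control and 6.90, 5.87, 4.37 and 5.89 in DIO + HMB tumors. These 2 groups overlapped through DIO + HMB replicate 3, and without control replicate 1 the difference was 0.95 (unadjusted p = 0.148). Serpina3n and Lrg1 were each under 0.05 in 8 of the 13 fits that left out 1 tumor.

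Il4ra, a receptor chain for IL4 and IL13, was higher by 0.23 ± 0.093 for averaged HMB (unadjusted p = 0.0265), and Lcn2 by 0.97 ± 0.44 (unadjusted p = 0.0453). They were under 0.05 in 9 and 4 of the 13 fits that left out 1 tumor, and Lcn2 was at 0.54 (unadjusted p = 0.199) without both DIO replicate 3 and DIO + HMB replicate 1, a setting chosen after seeing the data. Il21, a cytokine of T cells, was lower in DIO + HMB than in control + HMB by 0.50 (log2 difference -0.50 ± 0.15, unadjusted p = 0.00529, adjusted p = 1.00). Its values lay between 2.35 and 3.23, below the median of all genes. Vegfa, an angiogenic factor also induced by low oxygen, had an averaged obesity difference of 0.38 ± 0.17 (unadjusted p = 0.0497), or 0.23 without DIO replicate 3 (unadjusted p = 0.141). In this list S100a8 and S100a9 also mark neutrophils, and Fos is also an immediate early gene.

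Markers of several other cells, but not of all, were higher in the groups in which receptors were higher. The neutrophil score over 10 genes ran from -0.54 to -0.04 in DIO and from 0.03 to 0.48 in DIO + HMB, and 8 of 10 neutrophil genes were higher in DIO + HMB. Only Cxcr2, Csf3r and Mmp9 of these had a mean above 4.45, the median of the mean levels of all genes. The T cell score ran from -0.76 to -0.26 in DIO and from -0.23 to 1.31 in DIO + HMB, with 9 of 9 measured genes higher, and the endothelial score from -0.31 to -0.07 and from -0.02 to 0.73, with 9 of 10 higher. B cell and adipocyte genes were higher in 9 of 9 each, and immediate early genes, which rise during tissue handling, in 9 of 10. The B cell score ran from -0.57 to -0.53 in DIO and from -0.47 to 3.74 in DIO + HMB. Of the measured B cell genes, only Cd79b, Cd22 and Ighm had a mean over the 13 arrays above 4.45. Fibroblast genes were higher in 8 of 10, macrophage genes in 6 of 9, and epithelial and skeletal muscle genes in 5 of 10 each. Of all genes, 47.9% were higher in DIO + HMB than in DIO. Macrophage scores overlapped (-0.14 to 0.03 and -0.19 to 0.20), as did fibroblast scores (-1.11 to 0.59 and -0.29 to 0.55). Between control + HMB and control, in which Stat3 was higher, macrophage genes were higher in 9 of 9, adipocyte genes in 9 of 9, endothelial genes in 9 of 10 and immediate early genes in 9 of 10. B cell genes were higher in 8 of 9, epithelial genes in 7 of 10 and T cell genes in 6 of 9. Neutrophil and fibroblast genes were higher in 5 of 10 each and skeletal muscle genes in 1 of 10, and 55.4% of all genes were higher. Endothelial scores did not overlap there (-0.15 to -0.10 in control and -0.07 to 0.29 in control + HMB), and macrophage scores did (-0.26 to 0.17 and -0.03 to 0.23). Skeletal muscle scores were high in single tumors: 3.95 in DIO + HMB replicate 3, 2.16 in control replicate 3 and 1.81 in DIO replicate 1. The part of these cells in the differences of Il6ra, Il6st, Osmr, Osm, Stat3 and Socs3 was not tested.

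**Figure D4:**
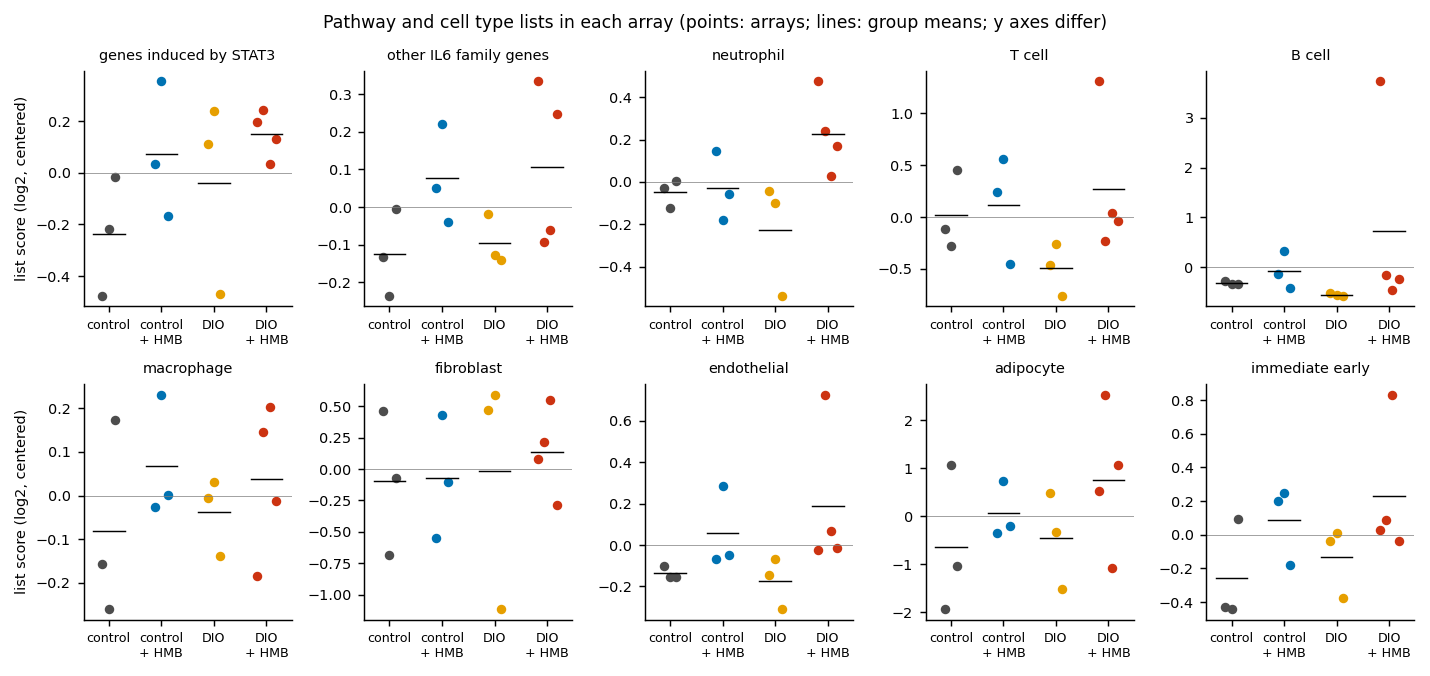
Scores of 2 pathway lists and 8 marker lists in each array (points) by group, with group means (lines). A score (vertical axis, scale differing between panels) is the mean log2 value of a list's genes, each centered on its mean over the 13 arrays. Neutrophil, T cell, B cell and endothelial scores of DIO + HMB tumors lie above those of DIO tumors, and among the lists plotted single DIO + HMB tumors stand out for B cell (3.74) and adipocyte (2.54) genes.

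Genes whose pattern over the 13 arrays was most like that of 4 family members were found by Pearson correlation among 10639 to 10640 genes at or above the median level, as a description. For Stat3 they were Sgpl1 (r = 0.965), Tmem185a (r = 0.956) and Mrps2 (r = 0.951), and 477 genes had r over 0.8, against 46 for Osmr, 27 for Socs3 and 0 for Il6. The pattern of Stat3 was thus shared by many genes. For Osmr they were Nrros (r = 0.923), Adam23 (r = 0.920) and Fam20a (r = 0.889). For Socs3 they were Vps11 (r = 0.899), Nqo2 (r = 0.887) and Zdhhc12 (r = 0.879), and for Il6 Trappc3 (r = 0.720), Ecscr (r = 0.684) and Parp11 (r = 0.684). All points share the same arrays and their widths.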

How the data were processed

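Total RNA of 13 tumors was hybridized by the authors to Affymetrix Mouse Gene 2.1 ST arrays. The deposited values are log2 values after RMA (background correction, quantile normalization and a summary per probe set). The submitters' processing notes name RMA, affy and limma, with no versions, and no genome build of the array is given there. RMA assumes a common distribution, so a change shared by most genes would be lost. Of 41345 probe sets, 23521 had 1 gene symbol, which gave 22180 genes without a filter on low signal. One 4-group model was fitted with limma 3.58.1 (lmFit, eBayes; R 4.3.3; 9 residual degrees of freedom), two-sided, with Benjamini-Hochberg adjustment over all genes and a threshold of 0.05. It was tested on simulated data. A list score is the mean centered log2 value of its genes. The number of arrays limits the precision: the median SE for groups of 3 was 0.189. Genes, lists and tests were chosen with earlier results of these data known. All 10 genes were named, and from each list those with an unadjusted p under 0.05, at most 4 per direction. Alternatives left out each array, blocked on replicate number, or changed the test, weights, width, normalization, filter or probe set. For Osm, Lif and the listed genes these values were added after seeing the data. Promoters and gene positions are from RefSeq GRCm38.p6.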

Additional observations from a re-analysis of the deposited data

Results flagged for a closer look

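Il6ra in DIO + HMB replicate 1 was 9.15 on the log2 scale, apart from the other 3 tumors of its group, which lay at 9.06 to 9.08. Its gap to the nearest tumor took 0.850 of the group's range, above Dixon's 95% critical value for a group of 4. The group's SD was only 0.039, and chance flags about 1 in 20 groups.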

How the results depend on the processing

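No gene of the 10 passed the adjusted threshold in the main model, so stability is given for the unadjusted calls. The 13 differences under an unadjusted p of 0.05 kept their sign in all 289 values recomputed; 248 stayed under 0.05 and 41 did not. Array width as a covariate lost 11 of the 13, in a model that cannot fully separate width from HMB. With array width as a covariate, the number of the 10 genes under an unadjusted p of 0.05 was 0 for averaged HMB, 0 for DIO + HMB against DIO, 0 for control + HMB against control and 1 (Lifr) for DIO + HMB against control, and the averaged HMB difference of Socs3 turned to -0.081. Without both DIO replicate 3 and DIO + HMB replicate 1, a setting chosen after seeing the data, the number was 1 for DIO + HMB against DIO and 1 for DIO against control. For control + HMB against control it was 3 with an intensity trend, 2 with array weights and 3 with low genes left out, and the median difference of the 10 genes was 0.0847 after quantile normalization, against 0.23. Leaving out 1 array at a time gave 1 to 4 of the 10 genes for DIO + HMB against DIO (1 without DIO replicate 3), 1 to 3 for control + HMB against control, 0 to 1 for DIO + HMB against control + HMB, DIO against control and the interaction, and 0 to 2 for averaged obesity. Over the whole array it gave 0 to 1 called genes for DIO + HMB against DIO and control + HMB against control and 0 to 3 for DIO + HMB against control; with low genes left out, 1 gene was called for control + HMB against control. The causes were not tested, apart from the fewer genes or arrays that an alternative holds by construction.

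The labels do not say what the replicate number stands for. Deviations of same-numbered tumors of different groups correlated at -0.19 to 0.30 over 18 pairs, of which 3 were over the limit of 0.1. With so few tumors per group, these correlations cannot decide whether same-numbered tumors were paired. With the replicate number as a block, the number of the 10 genes under an unadjusted p of 0.05 was 0 for averaged obesity, 3 for averaged HMB and 5 for DIO + HMB against control. The methods' t-test called 0 genes after adjustment in each of its 5 comparisons, with 764 to 3053 under an unadjusted p of 0.05, and gives no averages or interaction.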
